A study of Homo sapiens with 24 samples.

Results

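The genes described here are 10 negative feedback targets of Wnt signaling: AXIN2, SP5, DKK1, DKK4, APCDD1, NKD1, NKD2, RNF43, ZNRF3 and BAMBI. They were chosen by gene symbol among the probes of a human whole genome oligo microarray, which holds 27263 gene names on 34127 probes other than controls. The 10 genes had 12 probes, 2 each for AXIN2 and ZNRF3 and 1 for each of the other 8 genes. The cells were HCT-116, a human colorectal carcinoma line, as a single stably transfected clone carrying a Tet repressor and a doxycycline-inducible DN-Tcf4, a dominant negative Tcf4 without the part that binds beta-catenin. All 4 groups carried both vectors. They were untreated cells (Ctl), cells given 4 ug/ml doxycycline (Doxy), cells given 5 mM sodium butyrate (NaB) and cells given both agents (DoxyNaB). The labels call both groups without butyrate mock-treated. They give 17.5 hr for all treatments, whereas by the study's methods doxycycline came first and the 17.5 hr were those of the cotreatment with butyrate. Each of 6 experiments had 1 array per treatment, for 24 arrays. Butyrate is a fatty acid made by bacteria from dietary fiber and inhibits histone deacetylases.

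In canonical Wnt signaling, beta-catenin enters the nucleus and binds Tcf/Lef factors on its target genes. Some of these targets encode inhibitors of the same pathway, so that signaling limits itself. Some act outside the cell on the Wnt co-receptors, some remove Frizzled receptors from the membrane, some act on Dishevelled, and AXIN2 is a scaffold of the complex that degrades beta-catenin. HCT-116 cells carry a stabilizing beta-catenin mutation, which lies downstream of most of these inhibitors.

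A level is the processed signal from the scanner divided by the 75th percentile of its array, on the log2 scale, so a level of 0 is the 75th percentile. Levels were compared within a probe and not between probes. A difference was taken between arrays of the same experiment and is given as the mean ± SD over 6 experiments unless another n is stated. A probe was tested if, in 1 or more treatments, each of the 6 arrays had it well above background. The test was made with limma over all 24 arrays with the experiment as a block, and p-values were adjusted by Benjamini-Hochberg over all 18966 such probes. A gene stands for its tested probe of highest mean level. A gene was called at an adjusted p under 0.01, and for the butyrate comparisons also at a fold above 2. The tests covered 15154 genes, among them 9 of the 10 described here. APCDD1 was the exception.

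The share of probes well above background was 78.3% to 88.1% on the arrays of experiments 2 to 4 and 52.5% to 62.4% on those of experiments 1, 5 and 6. In experiments 2 to 6 each slide held all 4 treatments. In experiment 1 butyrate and slide cannot be told apart. Of 8 epithelial and colorectal markers, CDH1, KRT8, KRT18, KRT19 and CDX2 were well above background on all 24 arrays, whereas EPCAM was so on 22, VIL1 on 5 and CDH17 on 2. Probes for markers of other cell types were above background on 11 to 23 arrays, except COL3A1, which was so on 0. In these bulk cultures fewer cells of a type and less RNA per cell cannot be told apart. The labels do not say whether the experiments were separate cultures, whereas the study's methods call them 6 biological replicates.

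The construct was checked on the 4 probes of TCF7L2, the gene that encodes Tcf4. With butyrate, doxycycline raised 2 of these probes, measured on all 24 arrays, by 3.22 ± 0.45 and 2.96 ± 0.88 (log2), with every DoxyNaB array above every NaB array. Another probe of TCF7L2 was well above background on 1 of 6 Ctl, 3 of 6 Doxy, 3 of 6 NaB and 6 of 6 DoxyNaB arrays and so passed the filter only through DoxyNaB. Its level ran from -4.85 to -2.61 in NaB and from -0.60 to 1.63 in DoxyNaB. The TCF7L2 probe of lowest coordinate on the plus strand, above background on 4 of 6 DoxyNaB arrays, fell in 6 of 6 experiments, with a difference of -1.25 ± 0.65 (adjusted p = 0.00567). Without butyrate, doxycycline changed the TCF7L2 probes by -0.17 to 0.36 and none was called. Butyrate without doxycycline also raised the first probe, by 1.06 ± 0.38 (adjusted p = 2.64e-06, higher in 6 of 6), but the probes differed. The NaB/Ctl difference of the second was 0.91 ± 0.98 (adjusted p = 0.0294). On the probe that passed only through DoxyNaB it was 1.90 ± 1.10, with 1 of 6 Ctl arrays above background. On the probe of lowest coordinate it was -0.08 ± 0.71 (adjusted p = 0.777, higher in 3 of 6). The file names 1 of the 4 probes by a transcript identifier.

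Butyrate without doxycycline raised AXIN2, SP5, DKK1, NKD1 and BAMBI and lowered RNF43, 6 of the 8 genes that were well above background on all 24 arrays. For comparison, 21.0% of all genes tested were called higher and 11.5% lower. DKK4, the ninth tested gene, was also called higher, but it passed the filter only through NaB, where it was high. The median difference was 1.42 over the 8 genes and 1.66 with DKK4, against 0.17 over all genes tested. With doxycycline present, butyrate raised NKD1 and BAMBI, and also DKK4, and lowered RNF43 and ZNRF3, where 18.7% of all genes were higher and 12.5% lower. The median was then 0.40 over the 8 genes and 0.50 with DKK4, against 0.11 over all genes tested. The butyrate values depend on the scaling. When arrays were scaled to the median signal, the median of all probes moved from 0.17 to -0.56 for NaB/Ctl, and the share of calls that were higher went from 65.3% to 21.9%. With quantile normalization that share was 43.8%, and with normexp background correction it was 53.2%. For DoxyNaB/Doxy, the share of higher calls was 59.9%, against 26.0% with scaling to the median and 42.9% with quantile normalization.

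**Figure D1:**
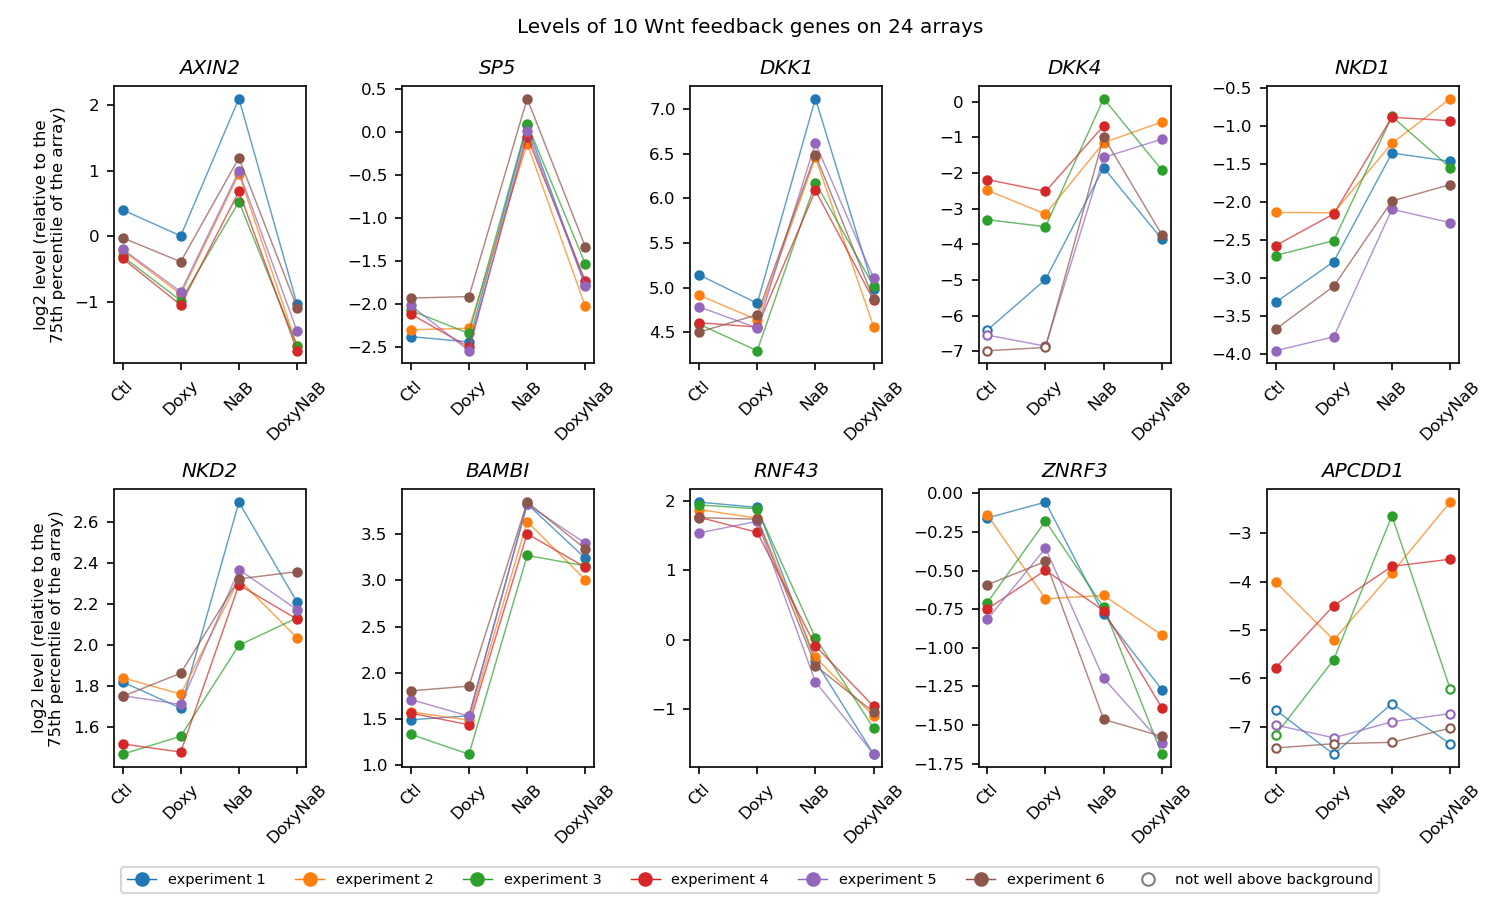
Level of each gene (log2 relative to the 75th percentile of the array, own y axis per gene) in the 4 treatments, with 1 point per array and lines joining the arrays of an experiment. Open points were not well above background. AXIN2, SP5 and DKK1 peak in NaB. In DoxyNaB, AXIN2 lies below the Ctl range, DKK1 lies within it and SP5 mostly lies above it, with levels from -2.03 to -1.34 against -2.38 to -1.93. BAMBI and NKD1 stay high in both butyrate groups, and RNF43 is lowest in DoxyNaB.

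AXIN2 rose with butyrate alone and was lower with butyrate when doxycycline was present. Its tested probe lies on chromosome 17 from 60955851 to 60955910 on the minus strand of NCBI36. The AXIN2 level ran from -0.34 to 0.40 in Ctl (median -0.20), from -1.05 to 0.01 in Doxy (median -0.87), from 0.53 to 2.10 in NaB (median 0.98) and from -1.75 to -1.04 in DoxyNaB (median -1.56). All NaB arrays lay above all Ctl arrays and above all DoxyNaB arrays, while Doxy overlapped both Ctl and DoxyNaB. In order, AXIN2 was highest in NaB, then Ctl, Doxy and DoxyNaB, and each neighboring pair differed at an adjusted p under 0.01.

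AXIN2 rose by 1.19 ± 0.29 with butyrate alone, a 2.28-fold rise (limma adjusted p = 2.06e-09), in 6 of 6 experiments. With doxycycline present it changed by -0.76 ± 0.15 with butyrate (adjusted p = 9.08e-07, lower in 6 of 6), which is 1.69-fold and short of the fold needed for a call. The rise was no longer called with normexp or after scaling to the median, where it was 0.46 (adjusted p = 0.0723), and the fall passed 2-fold both there and with quantile normalization. The second AXIN2 probe, on chromosome 17 from 60984850 to 60984909, was well above background on 4, 3, 5 and 3 of the 6 Ctl, Doxy, NaB and DoxyNaB arrays and was not tested. Its NaB/Ctl difference was 1.34 ± 0.83 and its DoxyNaB/NaB difference -1.75 ± 1.52.

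SP5 encodes a zinc finger transcription factor that represses other Wnt targets. Its probe lies on chromosome 2 from 171282536 to 171282595 (NCBI36). SP5 ran from -2.38 to -1.93 in Ctl (median -2.10), from -2.55 to -1.92 in Doxy (median -2.39), from -0.14 to 0.38 in NaB (median 0.04) and from -2.03 to -1.34 in DoxyNaB (median -1.76). The 6 NaB arrays stood above the other 18, and the other groups overlapped one another. Butyrate alone raised SP5 by 2.20 ± 0.16, or 4.59-fold (adjusted p = 3.37e-14). With doxycycline the difference was 0.64 ± 0.20, which had an adjusted p of 5.16e-07 but a fold of 1.55, and was -0.08 with quantile normalization.

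DKK1 and DKK4 encode secreted proteins that bind the LRP5 and LRP6 co-receptors. The DKK1 probe lies on chromosome 10 from 53746693 to 53746752 (NCBI36). DKK1 ran from 4.50 to 5.14 in Ctl (median 4.69), from 4.29 to 4.82 in Doxy (median 4.60), from 6.09 to 7.12 in NaB (median 6.48) and from 4.56 to 5.11 in DoxyNaB (median 4.93). As for SP5, the 6 NaB arrays lay above all others and the 3 other groups overlapped. DKK1 rose by 1.74 ± 0.23 with butyrate alone, 3.34-fold (adjusted p = 1.62e-10). With doxycycline its butyrate difference was 0.31 ± 0.29 (adjusted p = 0.0213), and -0.23 after scaling to the median.

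**Figure D2:**
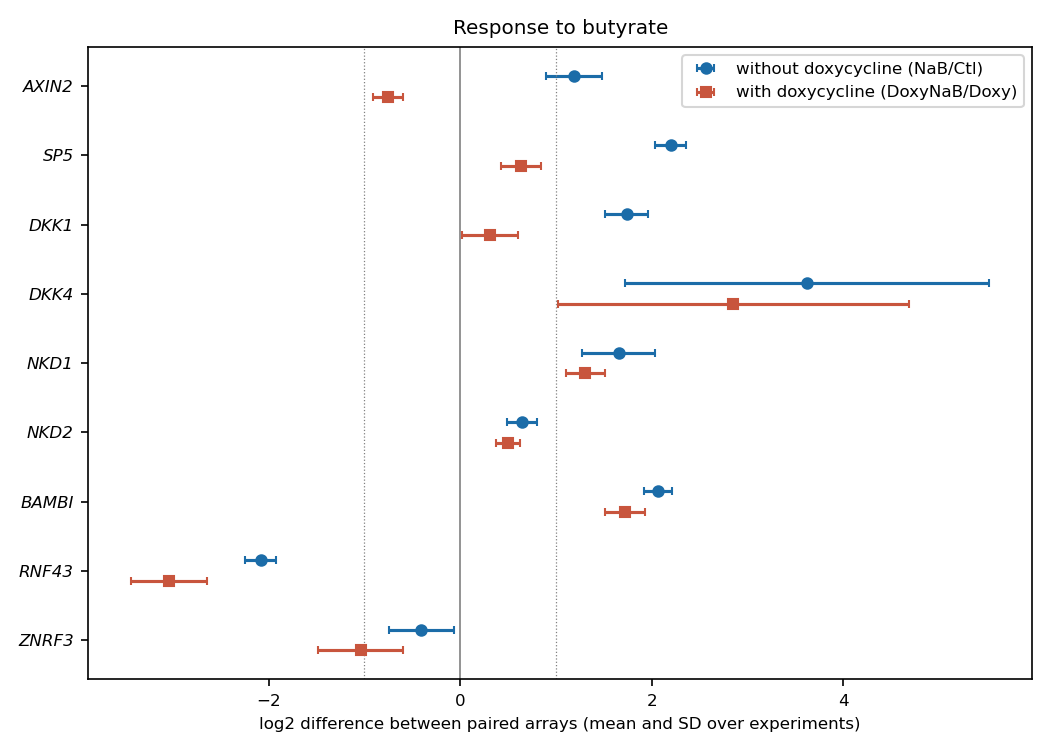
Response of the 9 tested genes to butyrate (log2 difference between arrays of the same experiment, mean and SD over 6 experiments, 5 for DKK4 with doxycycline) without doxycycline in blue and with doxycycline in red. Dotted lines mark a 2-fold change. The red AXIN2 point is below 0 at -0.76 and the blue one above it at 1.19, whereas the points of NKD1, NKD2 and BAMBI lie close together.

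SP5 and DKK1 are shown with their promoter sequence because they were 2 of the genes with the clearest NaB peak, and because the core motif recognized by Tcf/Lef factors was found in them. The motif searched was CAAAG preceded by 2 bases that are each A or T, searched on both strands, in windows from 250 bases before to 50 bases after the annotated start from RefSeq (GRCh38.p14). Windows were found for 6 of the 10 genes, and 2 of these 6, SP5 and DKK1, held the motif. Counted by window, it was in 2 of the 7 windows of these genes (28.6%), against 13.8% of the 35116 promoter windows of the table. BAMBI, NKD2, RNF43 and APCDD1 had windows without these letters, and AXIN2, NKD1, DKK4 and ZNRF3 were not matched. A match describes letters only and is not evidence of binding. In the stretches below, read 5′ to 3′ on the plus strand, the motif is in capitals, and CTTTG marks a match on the opposite strand. The SP5 stretch is chr2:170715177-170715271 and the DKK1 stretch is chr10:52314174-52314223, both upstream of the start.
SP5: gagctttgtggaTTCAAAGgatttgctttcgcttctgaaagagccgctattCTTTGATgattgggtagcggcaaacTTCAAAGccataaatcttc
DKK1: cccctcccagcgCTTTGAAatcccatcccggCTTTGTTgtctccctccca

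**Figure D3:**
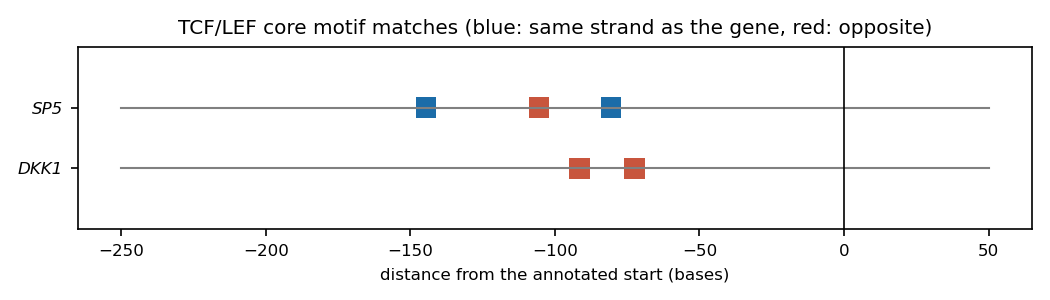
Matches to the motif in the SP5 and DKK1 windows, by distance from the annotated start in bases (blue on the strand of the gene, red on the opposite strand). SP5 had 3 matches, beginning at -148, -109 and -84, and DKK1 had 2, beginning at -95 and -76.

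DKK4 was near background without butyrate. Its probe lies on chromosome 8 from 42351439 to 42351498 (NCBI36, minus strand). DKK4 was well above background on 3 of 6 Ctl, 4 of 6 Doxy and 6 of 6 NaB arrays, and on all 5 DoxyNaB arrays with a value, since the spot of experiment 4 was an outlier on the scanner and was dropped. Its level ran from -6.98 to -2.18 in Ctl (median -4.85), from -6.89 to -2.51 in Doxy (median -4.24), from -1.85 to 0.09 in NaB (median -1.07) and from -3.85 to -0.57 in DoxyNaB (median -1.91). Every NaB array was above every Ctl array, and the low Ctl and Doxy values came from experiments 1, 5 and 6. In experiments 2 to 4, in which the Ctl spots were above background, DKK4 was higher with butyrate by 1.34 to 3.39, with a mean of 2.08. The 3.39 came from experiment 3, whose NaB array had a high negative control signal (161, against 48.4 to 115 on 22 other arrays). In experiments 1, 5 and 6 the Ctl spots were not above background, and the computed differences of 4.55, 4.98 and 5.99 are not measured sizes. Over all 6 experiments the mean difference was 3.63 ± 1.90 (limma adjusted p = 3.76e-05), which includes these. With doxycycline the mean difference was 2.85 ± 1.83 (n = 5, fitted value 2.76, limma adjusted p = 0.000645). The Doxy spots of experiments 5 and 6 were not above background, and the call was lost without the experiment block (adjusted p = 0.0341).

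APCDD1, a membrane glycoprotein that binds Wnt ligands and LRP5, had only a bound on most arrays. Its probe, on chromosome 18 from 10478470 to 10478529 (NCBI36), was well above background on 2, 3, 3 and 2 of 6 Ctl, Doxy, NaB and DoxyNaB arrays. The APCDD1 level ran from -7.44 to -4.01 in Ctl, from -7.57 to -4.49 in Doxy, from -7.33 to -2.63 in NaB and from -7.36 to -2.35 in DoxyNaB. The groups overlapped throughout and no test was made. The highest values in NaB and DoxyNaB came from experiment 3 and experiment 2, the 2 arrays on which the negative control signal stood apart, at 161 and 248.9 against 48.4 to 115 on the other 22. Their part in these values was not tested. All the arrays on which APCDD1 was well above background belonged to experiments 2 to 4.

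NKD1 and NKD2 encode Naked cuticle proteins, which bind Dishevelled. The NKD1 probe lies on chromosome 16 from 49225386 to 49225445 (NCBI36). NKD1 ran from -3.96 to -2.14 in Ctl (median -3.01), from -3.78 to -2.14 in Doxy (median -2.65), from -2.10 to -0.88 in NaB (median -1.29) and from -2.27 to -0.64 in DoxyNaB (median -1.51). The experiments differed more within NKD1 than within SP5, but every experiment rose with butyrate. NKD1 rose by 1.66 ± 0.38 with butyrate alone (adjusted p = 9.03e-10) and by 1.31 ± 0.20 with doxycycline present (adjusted p = 2.39e-08). Between DoxyNaB and NaB the NKD1 difference was -0.03 ± 0.42. It ran from -0.67 in experiment 3 to 0.59 in experiment 2, each with 1 of the 2 arrays of high negative control signal. After scaling to the median NKD1 was called in neither butyrate comparison, with normexp not in the first and with quantile normalization not in the second.

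NKD2 moved less. Its probe lies on chromosome 5 from 1091719 to 1091778 (NCBI36). NKD2 ran from 1.46 to 1.84 in Ctl (median 1.75), from 1.48 to 1.86 in Doxy (median 1.70), from 2.00 to 2.70 in NaB (median 2.32) and from 2.03 to 2.36 in DoxyNaB (median 2.15). The butyrate arrays lay above those without butyrate. The NKD2 differences, 0.64 ± 0.15 without and 0.50 ± 0.13 with doxycycline, passed the adjusted p but not the fold, and were -0.09 and -0.04 after scaling to the median.

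BAMBI encodes a pseudoreceptor that blocks TGF-beta and BMP signaling and is also a Wnt target. Its probe lies on chromosome 10 from 29011557 to 29011616 (NCBI36). BAMBI ran from 1.33 to 1.81 in Ctl (median 1.57), from 1.12 to 1.86 in Doxy (median 1.51), from 3.27 to 3.85 in NaB (median 3.73) and from 3.01 to 3.40 in DoxyNaB (median 3.20). All 12 butyrate arrays lay above the other 12. BAMBI rose by 2.07 ± 0.15, or 4.20-fold, with butyrate alone (adjusted p = 2.95e-14) and by 1.72 ± 0.21, or 3.30-fold, with doxycycline present (adjusted p = 2.62e-13).

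RNF43 and ZNRF3 encode transmembrane E3 ubiquitin ligases that mark Frizzled receptors for removal. The RNF43 probe lies on chromosome 17 from 53786062 to 53786121 on the minus strand (NCBI36). RNF43 ran from 1.54 to 1.99 in Ctl (median 1.82), from 1.55 to 1.91 in Doxy (median 1.75), from -0.61 to 0.03 in NaB (median -0.28) and from -1.66 to -0.96 in DoxyNaB (median -1.19). Ctl and Doxy overlapped, and NaB and DoxyNaB were separate from them and from each other. RNF43 fell by 2.08 ± 0.16 with butyrate alone, 4.24-fold (adjusted p = 7.69e-12), and by 3.04 ± 0.39 with doxycycline present, 8.25-fold (adjusted p = 5.20e-14). RNF43 was the only one of the 9 tested genes called lower in both butyrate comparisons.

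The ZNRF3 probe of higher level lies on chromosome 22 from 27779612 to 27779671 (NCBI36). ZNRF3 ran from -0.82 to -0.14 in Ctl (median -0.65), from -0.68 to -0.06 in Doxy (median -0.40), from -1.46 to -0.66 in NaB (median -0.77) and from -1.69 to -0.92 in DoxyNaB (median -1.48). DoxyNaB lay below Ctl and Doxy without overlap, and NaB overlapped every other group. ZNRF3 changed by -0.41 ± 0.34 with butyrate alone (adjusted p = 0.0123) and fell by 1.04 ± 0.44 with doxycycline present, 2.06-fold (adjusted p = 1.82e-06). Without experiment 3 or 5 that fall was under 2-fold. The other ZNRF3 probe, from 27782861 to 27782920, gave 0.04 ± 0.10 and -0.62 ± 0.28, so the probes disagreed on the second call.

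Doxycycline without butyrate left most of these genes within their spread. AXIN2 alone of the 9 was called, lower, against 0.0924% of all genes called lower and 0.462% higher. The study had already reported AXIN2 as lower in this comparison, so the call is not independent of its result. AXIN2 fell by 0.58 ± 0.15, which is 1.49-fold (adjusted p = 0.00289), in 6 of 6 experiments. The AXIN2 call passed in 8 of 22 settings. It was lost without experiment 2, 3, 4, 5 or 6 in turn, and with normexp, quantile normalization, scaling to the median, no filter or no experiment block, among others. The other 8 genes differed by -0.20 to 0.32. The median of the 9 was -0.05, and -0.07 without DKK4, against 0.02 over all genes tested.

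Doxycycline with butyrate lowered AXIN2, SP5, DKK1, RNF43 and BAMBI, 5 of the 9, and raised 0. By comparison, 2.03% of all genes were called lower and 0.693% higher. The study had already reported AXIN2, SP5 and DKK1 as lower in this comparison, so the count is not independent of its result. The median of the 9 was -0.87, and -0.74 without DKK4, against -0.03 over all genes tested. AXIN2 fell by 2.53 ± 0.34, or 5.76-fold (adjusted p = 2.63e-11), SP5 by 1.76 ± 0.10 and DKK1 by 1.59 ± 0.38, each in 6 of 6 experiments. DoxyNaB and NaB did not overlap for these 3 genes. RNF43 fell by 1.01 ± 0.27, or 2.02-fold (adjusted p = 9.45e-06), and BAMBI by 0.44 ± 0.19 (adjusted p = 0.00077). The BAMBI call was lost without the experiment block (adjusted p = 0.0645), and with normexp or scaling to the median the calls of both RNF43 and BAMBI were lost.

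The remaining 4 genes were not called between DoxyNaB and NaB. DKK4 differed by -1.13 ± 1.56 (n = 5, fitted value -0.87, adjusted p = 0.577), ZNRF3 by -0.48 ± 0.29 (adjusted p = 0.0572), NKD2 by -0.16 ± 0.22 and NKD1 by -0.03 ± 0.42. The other ZNRF3 probe differed by -0.51 ± 0.17 (adjusted p = 0.000518), lower in 6 of 6. NaB/Ctl and DoxyNaB/NaB share the NaB arrays.

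**Figure D4:**
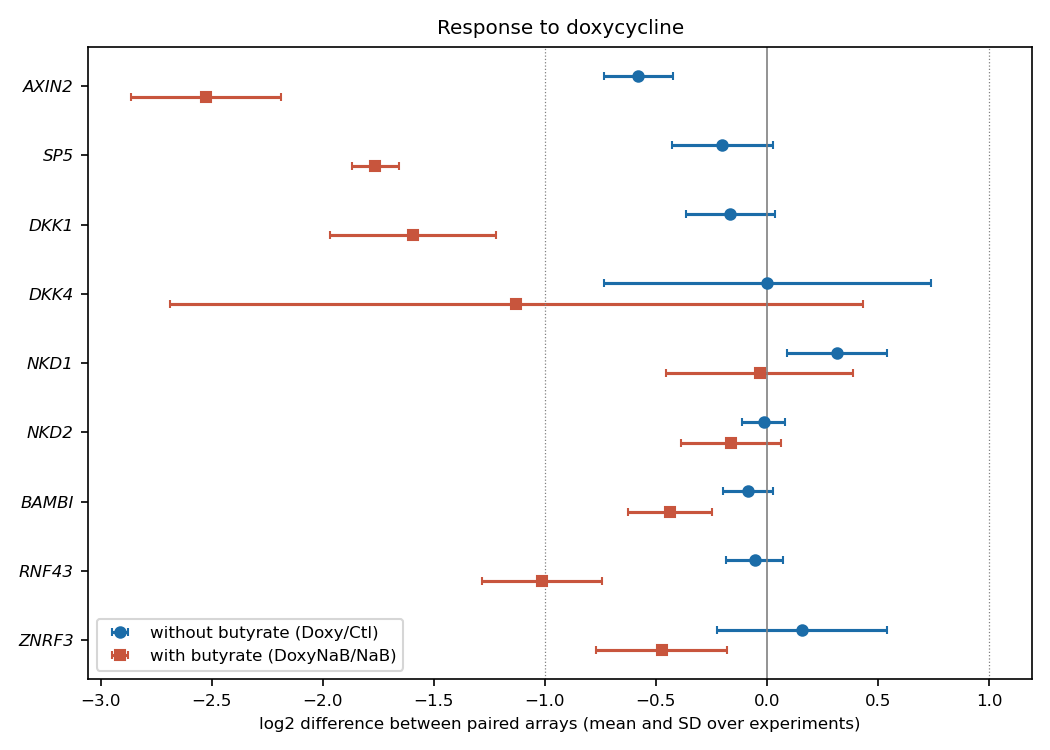
Response of the 9 tested genes to doxycycline (log2 difference between arrays of the same experiment, mean and SD over 6 experiments, 5 for DKK4 with butyrate) without butyrate in blue and with butyrate in red. The blue points lie near 0 apart from AXIN2 at -0.58, and the red points of AXIN2, SP5, DKK1, DKK4 and RNF43 lie beyond the dotted line of a 2-fold fall, with the DKK4 bar crossing 0.

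Whether the butyrate response differed with and without doxycycline was tested as the interaction, the NaB/Ctl difference minus the DoxyNaB/Doxy difference. It was positive and called for 4 of the 9 genes, AXIN2, SP5, DKK1 and RNF43, against 1.12% of all genes called positive and 0.244% negative. Of these, AXIN2, SP5 and DKK1 had already been reported by the study as lower in DoxyNaB than in NaB. The median interaction of the 9 was 0.87, and 0.80 without DKK4, against 0.04 over all genes tested. AXIN2 had the largest interaction of the 4, at 1.95 ± 0.42, and SP5 followed at 1.56 ± 0.28, both with an adjusted p of 8.24e-08. DKK1 had 1.43 ± 0.38 (adjusted p = 5.10e-05) and RNF43 0.96 ± 0.31 (adjusted p = 0.00141). All 6 experiments gave a positive value for each of these 4 genes. For RNF43, which fell in both comparisons, a positive value means the deeper fall with doxycycline.

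The interaction was smaller for BAMBI, at 0.35 ± 0.28 (adjusted p = 0.0864), NKD1, at 0.35 ± 0.50 (adjusted p = 0.45), and NKD2, at 0.15 ± 0.14 (adjusted p = 0.656). For DKK4 it was 1.20 ± 2.12 (n = 5, fitted value 0.87, adjusted p = 0.768), a spread wider than the value. ZNRF3 gave 0.63 ± 0.60 (adjusted p = 0.119) on its higher probe and 0.65 ± 0.28 (adjusted p = 0.00243) on the other, so the probes disagreed on the call and not on the size.

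The 4 called interactions were positive under every alternative run, but their calls did not all hold. With scaling to the median, 0 of the 9 genes were called by limma, although 4 had an unadjusted p under 0.05. With the methods' paired test after Benjamini-Hochberg adjustment 0 were called and 7 had an unadjusted p under 0.05. Over all 18966 probes, scaling to the median called 9 and the adjusted paired test 0, against 236 in the main analysis. Neither 0 is therefore particular to these genes. The RNF43 call was lost without experiment 3 or without experiment 5 (adjusted p = 0.0165 and 0.0166), and with normexp (adjusted p = 0.561), and the SP5 call with normexp (adjusted p = 0.0527) or quantile normalization (adjusted p = 0.0221). Within experiments 2 to 4 and within experiments 5 and 6, the AXIN2 interaction was 1.74 and 1.86, and that of SP5 1.52 and 1.51. The corresponding values were 1.22 and 1.55 for DKK1 and 0.88 and 0.93 for RNF43.

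**Figure D5:**
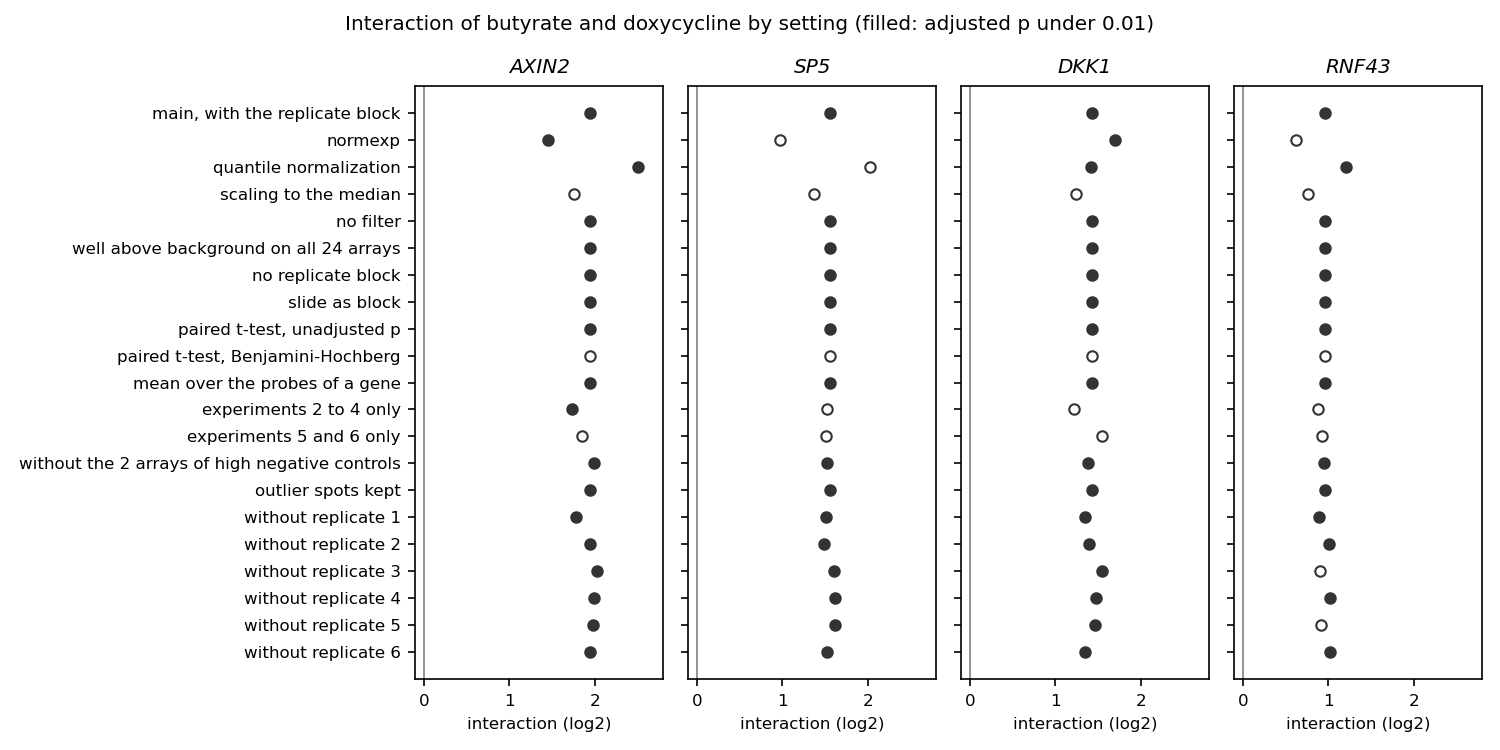
Interaction (log2) of AXIN2, SP5, DKK1 and RNF43 under the main setting and each alternative, where a replicate is an experiment. Filled points had an adjusted p under 0.01. Every point is above 0, from 0.62 for RNF43 with normexp to 2.51 for AXIN2 with quantile normalization.

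Other genes of the pathway were taken as 3 lists. Of 31 other Wnt/Tcf target genes, 24 were tested. Between DoxyNaB and NaB, 10 of the 24 were lower and 1, FOSL1, was higher, against 2.03% and 0.693% of all genes. The study had already reported MYC, CCND1, BMP4, KITLG, SOX4 and SOX9 as lower in this comparison. The other lower genes were ID2, MSX1, SLC12A2 and TCF7. MYC fell by 1.52 ± 0.15 (adjusted p = 7.92e-11), MSX1 by 1.30 ± 0.24, CCND1 by 0.99 ± 0.24 and TCF7, itself a Tcf factor, by 0.51 ± 0.11. The interaction was positive and called for 6 of the 24, against 1.12% of all genes, with the largest values for MYC (1.60 ± 0.17, adjusted p = 2.13e-08) and MSX1 (1.44 ± 0.30, adjusted p = 6.82e-07). Apart from MSX1 these were genes the study had reported (BMP4, CCND1, KITLG, MYC and SOX9). Neither count is therefore independent of the study's own result. Butyrate alone raised 8 of these 24 and lowered 6, against 21.0% and 11.5% of all genes, and with doxycycline it raised 5 and lowered 7, against 18.7% and 12.5%. Between Doxy and Ctl limma called 0 of the 24, against 0.462% of all genes higher and 0.0924% lower, with 6 at an unadjusted p under 0.05. The adjusted paired test called 0 of the 24 and 10 of all 18966 probes. A count of 0 is thus near the shares over all genes. LGR5, ASCL2 and LEF1 were not tested, being below the background filter.

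Of 43 genes for core components of the pathway, 38 were tested. Between DoxyNaB and NaB 1 was higher (DVL1) and 2 were lower (CTBP2 and FZD1), against 0.693% and 2.03% of all genes. CTNNB1, which encodes beta-catenin, differed by -0.08 ± 0.14, APC by -0.04 ± 0.25 and AXIN1, the paralog of AXIN2, by 0.29 ± 0.39, none of them called. Butyrate alone raised 7 of the 38 and lowered 4, against 21.0% and 11.5% of all genes, and with doxycycline it raised 5 and lowered 3, against 18.7% and 12.5%. The NaB/Ctl shares were near those of all genes. The interaction was called for 0 of the 38 by limma, with 5 at an unadjusted p under 0.05 and 0 by the adjusted paired test. That paired test called 0 of all 18966 probes for the interaction, so its 0 cannot tell this list from others. Over all genes limma called 1.12% positive and 0.244% negative. The core genes of largest interaction were TNKS2 (0.58 ± 0.76) and FZD1 (0.47 ± 0.28). For Doxy/Ctl the corresponding counts were 0, 5 and 0, where limma called 0.462% of all genes higher and 0.0924% lower.

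Of 21 other Wnt antagonists, 7 were tested, and NOTUM was not. Butyrate raised 2 and lowered 1 both without and with doxycycline. The shares over all genes were 21.0% and 11.5% without doxycycline and 18.7% and 12.5% with it. DoxyNaB/NaB gave 1 call, TMEM88, which was higher by 0.94 ± 0.33 (adjusted p = 7.82e-05), against 0.693% of all genes called higher and 2.03% lower. Limma called the interaction for 0 of the 7, against 1.12% of all genes positive and 0.244% negative, with 2 at an unadjusted p under 0.05. The adjusted paired test also called 0, as it did over all 18966 probes. The largest values were -0.69 ± 0.27 for TMEM88 and 0.30 ± 1.01 for FRZB. For Doxy/Ctl the counts by limma, at an unadjusted p under 0.05 and by the adjusted paired test were 0, 1 and 0. Limma called 0.462% of all genes higher and 0.0924% lower there.

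The genes with the pattern most like AXIN2 were ranked by the root mean square difference between their levels and those of AXIN2 on the 24 arrays, each gene centred on its own mean. Over 15153 other genes the nearest were ZNF503 (0.551), SNAR-A3 (0.585), DKK1 (0.593), KRTAP3-1 (0.626) and BIK (0.636), all in log2 units. SNAR-A3 belongs to a family of near-identical copies, so its probe may read several of them. Of the genes described here, SP5 came next after DKK1, at rank 24 (0.774). NKD2 was at rank 542, ZNRF3 at 2861, BAMBI at 9300, NKD1 at 12186, RNF43 at 13604 and DKK4 at 15020. Levels were centred but not scaled, so a gene that changed little, such as NKD2, could rank nearer than one that changed more.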

How the data were processed

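Total RNA of 24 samples was hybridised to 1-colour Agilent arrays. The files deposited by the authors hold scanner output of Agilent Feature Extraction 9.5.3.1, and the processed signal is an intensity after background correction on the scanner, not normalized between arrays. Probe positions are those of the files (hg18 / NCBI 36). Control spots and outlier spots were left out, spots of 1 probe were averaged on the log2 scale, and levels were log2 intensity minus that of the 75th percentile (380.2 to 1323 across arrays). limma 3.58.1 in R 4.3.3 fitted the 4 treatments with experiment as a block, since the methods name a paired test and arrays of an experiment share a slide from experiment 2 on. Deviations of arrays of 1 experiment correlated at 0.22 to 0.85 in 35 of 36 pairs of groups, and at -0.22 for NaB and DoxyNaB of experiment 3. The fit was tested on simulated data. The named genes were all 10 members, TCF7L2, preset genes of the lists, the 2 largest interactions per list and the 5 nearest to AXIN2. Alternatives were normexp (offset 50), quantile normalization, median scaling (floor 5), other filters, blocks, sample subsets and probe averaging, the methods' paired t-test, and, added after seeing the data, outlier spots kept. The members and lists were chosen with earlier results of these data known.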

Additional observations from a re-analysis of the deposited data

Results flagged for a closer look

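The butyrate response differed with doxycycline, by the interaction term, for AXIN2 (1.95), SP5 (1.56), DKK1 (1.43) and RNF43 (0.96), all on the log2 scale. Of the 48 groups of 6 arrays checked for an outlying array, 1 had one, where chance flags about 1 group in 20. It was the second AXIN2 probe, which is not among the tested probes, at -6.54 on the NaB array of experiment 1, with the gap to the nearest NaB array 0.762 of the whole range. That array was not well above background for this probe.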

How the results depend on the processing

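The main analysis, with the replicate block (arrays of an experiment paired), called 7, 5, 1, 5 and 4 of the 9 genes for NaB/Ctl, DoxyNaB/Doxy, Doxy/Ctl, DoxyNaB/NaB and the interaction, and without the replicate block 7, 4, 0, 4 and 4. The Doxy/Ctl count was also 0 with normexp, quantile normalization, scaling to the median, no filter, only the arrays of both groups, the methods' t-test after Benjamini-Hochberg adjustment, experiments 2 to 4 only and experiments 5 and 6 only, where 1 to 3 genes had an unadjusted p under 0.05, and it ran from 0 to 1 when each experiment was left out. Over all 18966 probes the main analysis called 95 for Doxy/Ctl, and these settings called 0 to 81. The DoxyNaB/NaB count was 3 with normexp, 3 with scaling to the median, 2 with the adjusted t-test, 3 in experiments 2 to 4 and 1 in experiments 5 and 6. The calls over all probes also fell, from 472 to 109, 46, 25, 39 and 3 in that order. The interaction count was 2 with normexp, 0 with scaling to the median, 0 with the adjusted t-test, 1 in experiments 2 to 4 and 0 in experiments 5 and 6, where 5 genes had an unadjusted p under 0.05. Interaction calls over all 18966 probes fell from 236 in the main analysis to 43, 9, 0, 5 and 0 in that order, so the loss is not particular to these genes. The other 80 counts under alternatives were within 1.5 times. The smaller sets have fewer arrays; for the other settings the cause was not tested.

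A sign changed for single genes only where the value was not called. For Doxy/Ctl, normexp gave NKD2 0.11, DKK1 0.084, DKK4 -0.31, RNF43 0.040 and BAMBI 0.057. Quantile normalization gave NKD2 0.0010 and DKK4 -0.077, scaling to the median DKK4 -0.084, experiments 2 to 4 DKK4 -0.40, and experiments 5 and 6 NKD2 0.035, DKK4 -0.11 and RNF43 0.073. With 1 experiment left out, NKD2 Doxy/Ctl ran from -0.041 to 0.0077 and DKK4 Doxy/Ctl from -0.28 to 0.13. For NKD1, DoxyNaB/NaB was 0.23 with normexp, 0.069 with scaling to the median, 0.020 in experiments 5 and 6 and from -0.16 to 0.095 when 1 experiment was left out, and its interaction was -0.23 with normexp. DoxyNaB/Doxy was -0.085 for SP5 with quantile normalization. With scaling to the median it was -0.23 for DKK1 and -0.043 for NKD2, and NKD2 had -0.087 for NaB/Ctl and -0.044 for the interaction.

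DKK4 and APCDD1 were limited by their signal over background, above all in experiments 1, 5 and 6.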
